A study of Homo sapiens with 6 samples.

Results

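The nuclear genome encodes most subunits of the respiratory chain and of ATP synthase, and 91 such genes were examined here among the 58735 gene identifiers of the deposited files. They are the protein-coding genes outside the mitochondrial genome whose GENCODE 29 symbol begins NDUFA, NDUFB, NDUFC, NDUFS or NDUFV with a digit, SDH with A to D, UQCR, COX4 to COX8 or ATP5, and CYC1. They comprised 37 genes of complex I, 4 of complex II, 10 of complex III, 19 of complex IV and 21 of complex V. NDUFA4 and NDUFA4L2 were placed with complex IV, where the NDUFA4 protein is found. The pattern matched 243 symbols of any type, of which 149 were pseudogenes and were left out.

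The study measured gene expression by RNA sequencing in A549, a long-used human cell line derived from non-small cell lung cancer. In 3 libraries the cells had received B35 at 2 µM for 72 h, and in 3 control libraries the cells were untreated over the same 72 h. All cells are labelled wild type and grew in DMEM with serum. B35 is named there as an LSD1 inhibitor (LSD1 is a histone demethylase, the product of KDM1A), and no solvent is named for the untreated cells. Nothing states that libraries of 1 group are separate cultures, and p-values thus measure only how far these libraries spread.

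Complexes I and II pass electrons from NADH and succinate to ubiquinone, complex III passes them on to cytochrome c, and complex IV passes them to oxygen. Complexes I, III and IV pump protons across the inner mitochondrial membrane, and complex V, the ATP synthase, uses the return flow of protons to make ATP. The subunits are made from nuclear and mitochondrial genes and are joined by dedicated assembly factors, and lung cancer lines such as A549 use this pathway beside glycolysis.

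Library totals ran from 17209863 to 18530670 counts with B35 and from 17141478 to 18398450 in the controls. KDM1A had 194, 183 and 176 CPM (TMM-scaled counts, as a rate per library) in the B35 libraries, against 199, 196 and 200.5 CPM in the control libraries, and did not pass the test (log2 fold change −0.11 ± 0.084 SE, edgeR adjusted p = 0.432). The activity of the enzyme was not measured. Of 5 epithelial markers, EPCAM, KRT8 and KRT18 exceeded 1 CPM, and KRT19 and CDH1 did not. All 5 together summed to 1396 to 1739 CPM in the B35 libraries and 2160 to 2247 CPM in the control libraries. Of 5 lung lineage markers only ABCA3 exceeded 1 CPM, and NAPSA was at 0. The leukocyte markers CD3E and LYZ were at 0. Endothelial markers summed to 7.38 to 9.60 CPM with B35 and 5.85 to 9.34 CPM in controls, with 1 of 5 (CDH5) above 1 CPM and KDR at 0. Of 5 fibroblast markers, 2 (COL1A1 and PDGFRB) exceeded 1 CPM. Fibroblast markers summed to 19.8 to 22.7 CPM with B35 and 27.1 to 27.3 CPM in controls, and the part of these differences in the results below was not tested. In bulk RNA, fewer cells of a kind and less RNA per cell cannot be told apart.

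B35 replicate 1 stood apart from the other B35 libraries in these genes. It held the lowest CPM of the 6 libraries for 54 of the 83 members that had enough counts to test (65.1%), against 24.2% of all genes tested. The median log2 ratio of this library to the mean of B35 replicates 2 and 3 was −0.29 over the members and −0.00030 over all genes tested. In 8 members the log2 ratio lay under −1 (9.64% of the members, against 2.26% of all genes). They were COX6A1, COX8A, NDUFA1, ATP5ME, NDUFA11, ATP5MF, NDUFB8 and ATP5IF1, with log2 ratios of −2.28 to −1.01. The share of counts from the mitochondrial genome was 5.20% in B35 replicate 1, 4.04% and 3.52% in B35 replicates 2 and 3, and 4.14% to 4.35% in the control libraries. The members have shorter merged exons than the rest (median 2615 bases, against 4618 bases over all genes tested), and the part of length or RNA quality in this difference was not tested. Counts of members are therefore given with and without this library.

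Most of the subunit genes measured lower with B35 than in untreated cells, by a modest amount in each. Of 83 members tested, 13 fell and none rose (adjusted p under 0.05 in the quasi-likelihood test of edgeR), which is 15.7% of them. Over all 14773 genes tested 15.4% passed in either direction, 6.59% lower and 8.82% higher. Neither DESeq2 nor limma-voom called any member higher. In all, 78 members had a log2 fold change below 0 (94.0%), against 49.0% of all genes, and their median was −0.26, against 0.0067 over all genes. Every B35 library lay below every control library in 36 members (43.4%, against a background of 17.5%) and above in 1 member (background 18.8%).

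Each complex held at least 1 of the members that fell. They comprised 2 of 35 tested genes of complex I, 2 of 4 of complex II and 2 of 10 of complex III. In complex IV 1 of 15 fell, and in complex V 6 of 19. The shares in complexes I and IV (5.71% and 6.67%) were near the 6.59% of all genes that were lower. Those in complexes II, III and V lay above it, from few genes in each. The median log2 fold change was −0.23 in complex I, −0.28 in complex II, −0.27 in complex III, −0.18 in complex IV and −0.31 in complex V. Without B35 replicate 1 these medians were −0.12, −0.26, −0.19, −0.08 and −0.24 in the same order. No difference between complexes was tested.

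**Figure D1:**
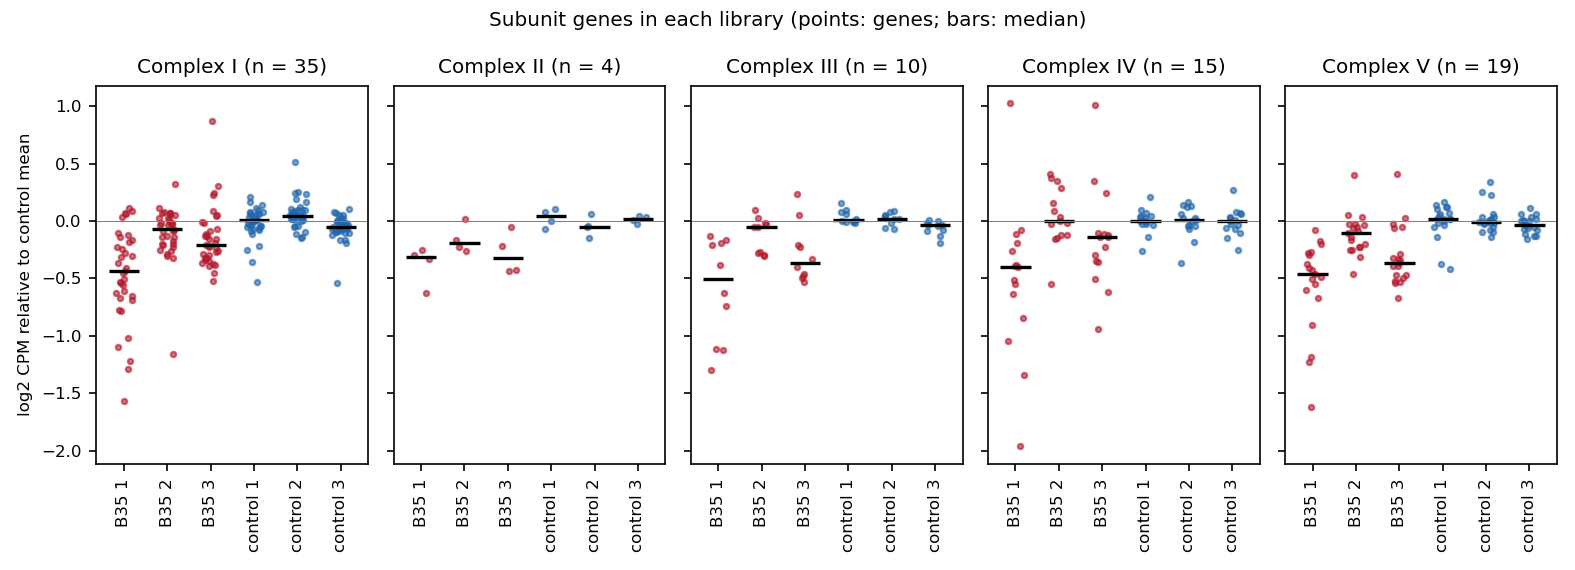
Log2 CPM of each tested member relative to its mean over the control libraries, by complex and library; points are genes and bars are medians. The medians over all 83 members were −0.42, −0.06 and −0.26 in B35 replicates 1, 2 and 3, and lay between −0.04 and 0.02 in the control libraries.

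Without B35 replicate 1, 17 members fell and 1 rose, against 10.1% of all genes lower in that fit, and 68 of 83 lay below 0, with a median of −0.17 against 0.0029 over all genes. All 13 members that fell in the full data fell there too, joined by NDUFS8, UQCRC2, COX5A and ATP5PO. The count of calls changed with the other libraries too. Leaving out B35 replicate 2 gave 21 lower and 1 higher, against 4.76% of all genes lower. Leaving out B35 replicate 3 gave 3 lower (4.21% of all genes). Leaving out control replicate 1 gave 3 (2.76% of all genes), control replicate 2 gave 3 (3.30%) and control replicate 3 gave 1 (1.94%), so that the members' share in these 4 fits was near the background or under it. The sign of all 13 was kept in each. With trends on GC content and exon length removed from each library, 33 members were lower, against 17.1% of all genes. With no filter on low counts, 28 of 86 members tested were lower, against 4.59% of 27717 genes, and 1 was higher.

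**Figure D2:**
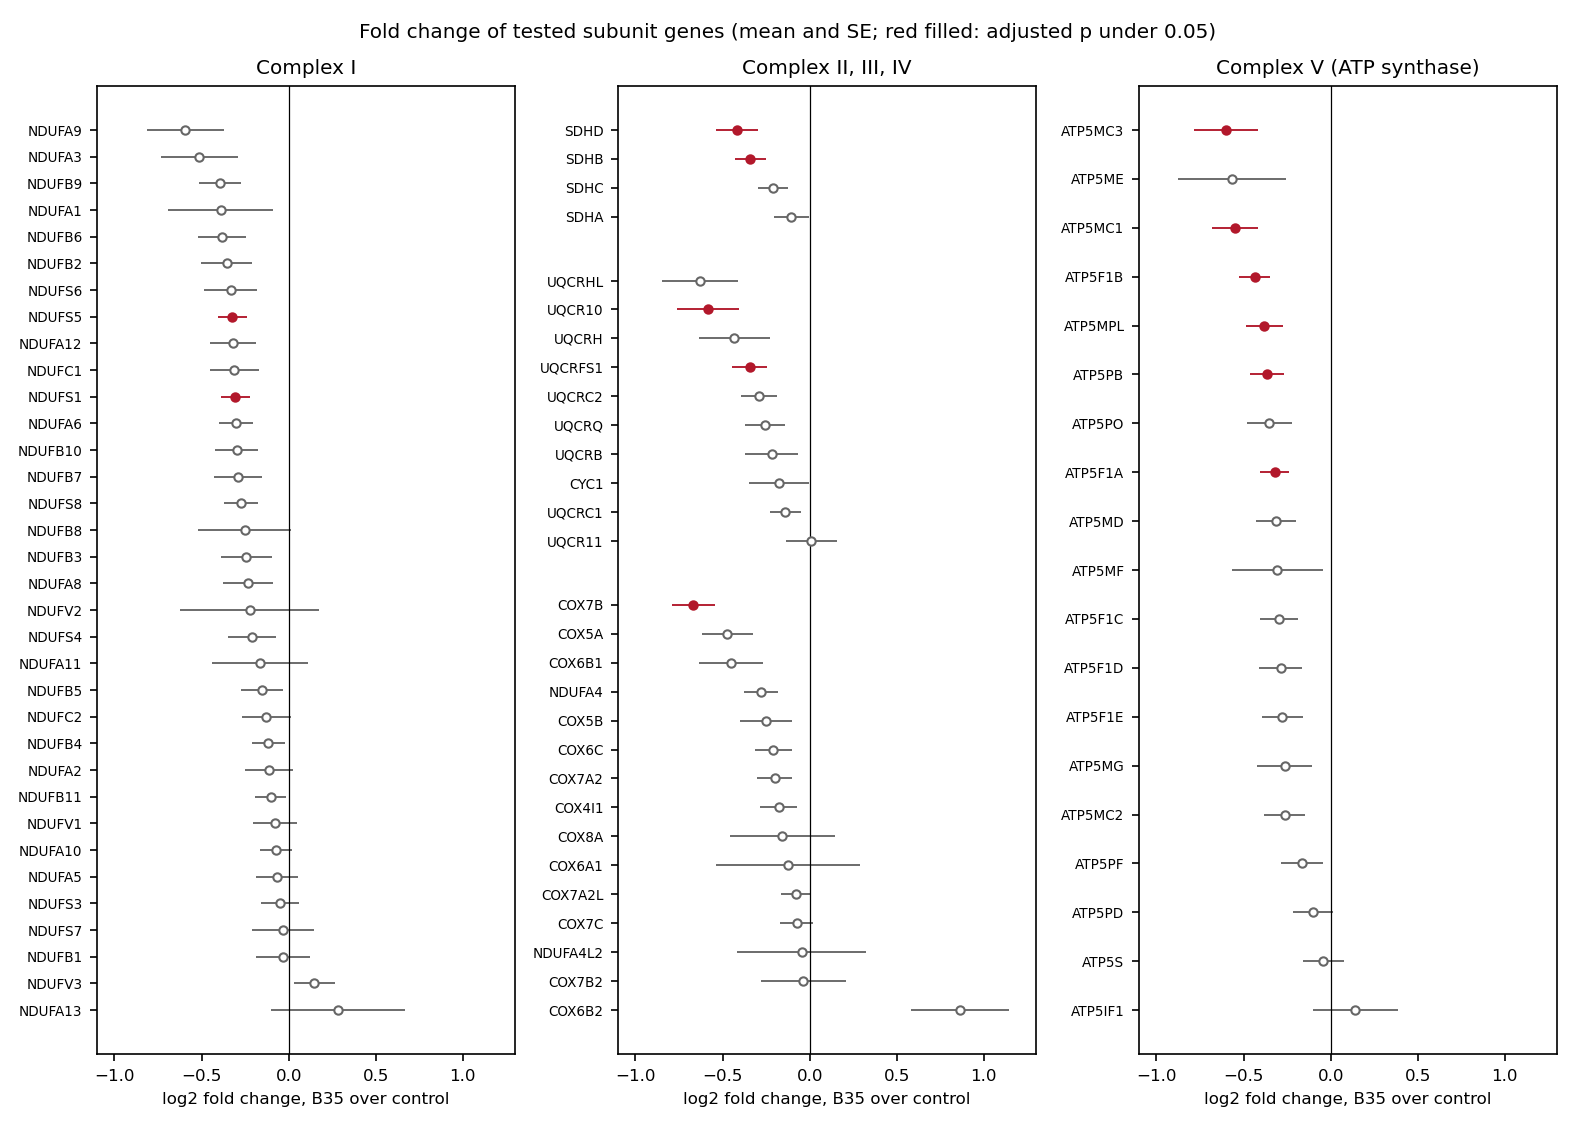
Log2 fold change of B35 over control for the tested members reported by name, with the SE, grouped by complex; filled red points passed the test. Most points lie left of 0, and COX6B2 lies farthest to the right at 0.86.

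Summed over the members, the level was 7699, 9800 and 8769 CPM in B35 replicates 1, 2 and 3, against 10598, 10653 and 10449 CPM in control replicates 1, 2 and 3. Each B35 sum lay under each control sum. The mean difference was −17.1%, and −12.1% over B35 replicates 2 and 3 alone. By complex, the difference of the sums was −14.1% for I, −11.7% for II, −16.8% for III, −16.1% for IV and −21.5% for V. Over B35 replicates 2 and 3 alone it was −9.20% for I, −7.49% for II, −11.2% for III, −9.65% for IV and −17.3% for V.

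Per unit of length, ATP5F1B and NDUFS5 were the most abundant members. ATP5F1B stood at 356 ± 30.3 FPKM with B35 and 486 ± 8.18 FPKM in controls (SD, n = 3 each). NDUFS5 stood at 368 ± 16.5 FPKM with B35 and 465 ± 22.6 FPKM in controls, so it was the higher of the pair with B35 and the lower in controls, each time by less than the larger SD. Averaged over all 6 libraries, the next were UQCRH at 191 FPKM, NDUFB11 and NDUFB7 at 159 FPKM each, UQCRQ at 137 FPKM and COX8A at 136 FPKM. Both leading genes passed the test, and the 5 after them did not.

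In complex I, 2 members fell. NDUFS1 (ENSG00000023228, chromosome 2, 206114817 to 206159603, minus strand, hg38) encodes the largest subunit, which carries iron-sulfur clusters in the arm that oxidises NADH. It had 114, 115 and 113 CPM in the B35 libraries, against 138, 137 and 148 CPM in the control libraries. The B35 values were close together and all lay below the controls (log2 fold change −0.31 ± 0.085 SE, 1.24-fold lower, edgeR adjusted p = 0.0346). NDUFS5 (ENSG00000168653, chromosome 1, 39026318 to 39034636, plus strand) encodes an accessory subunit on the intermembrane side. It had 199, 214 and 201 CPM with B35, against 242, 261 and 265 CPM in controls, again without overlap (log2 −0.32 ± 0.086, edgeR adjusted p = 0.0292).

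Other nuclear-encoded core subunits of complex I did not pass. Their log2 fold changes were −0.27 for NDUFS8, −0.22 for NDUFV2, −0.08 for NDUFV1, which binds the flavin that accepts electrons from NADH, −0.05 for NDUFS3 and −0.03 for NDUFS7. The accessory subunit NDUFA9 had the largest difference in the complex, at 5.20, 10.4 and 9.91 CPM with B35 and 12.7, 13.7 and 12.1 CPM in controls. Its groups did not overlap, B35 replicate 1 was lowest, and the gene did not pass (log2 −0.59 ± 0.222, edgeR adjusted p = 0.0951, and log2 −0.34 without that library). NDUFA3, another accessory subunit, measured −0.51 ± 0.221 on the log2 scale, and NDUFB9 −0.39 ± 0.122 (edgeR adjusted p = 0.143 and 0.0514). Without B35 replicate 1 the value of NDUFA3 was −0.26. NDUFB11, with the second highest FPKM in the complex, measured −0.10 ± 0.088, with 208, 232 and 218 CPM with B35 and 246, 236 and 225 CPM in controls. Those groups overlapped. NDUFV3 (log2 0.15) and NDUFA13 (0.28) were the members of complex I above 0, and neither passed.

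Complex II, succinate dehydrogenase, also belongs to the citric acid cycle, and all 4 of its subunit genes measured lower with B35. SDHB (ENSG00000117118, chromosome 1, 17018722 to 17054170, minus strand) encodes the iron-sulfur subunit. It had 83.0, 87.4 and 77.3 CPM in the B35 libraries, against 105, 101 and 108 CPM in the control libraries. No B35 library reached any control (log2 −0.34 ± 0.090, 1.27-fold lower, edgeR adjusted p = 0.0285). SDHD (ENSG00000204370, chromosome 11, 112086773 to 112120013, plus strand) encodes a membrane anchor. It had 55.3, 73.3 and 63.6 CPM with B35, against 91.9, 77.2 and 87.6 CPM in controls, where the highest B35 value lay just under the lowest control (log2 −0.42 ± 0.119, edgeR adjusted p = 0.0379).

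The other 2 subunits did not pass. SDHC, the second membrane anchor, had 125, 132 and 127 CPM with B35, against 157, 143 and 146 CPM in controls, without overlap (log2 −0.21 ± 0.087, edgeR adjusted p = 0.125). SDHA, the flavoprotein that binds succinate, had 425, 529 and 502 CPM with B35, against 497, 544 and 525 CPM in controls. B35 replicate 1 was the low value there and the groups overlapped (log2 −0.10 ± 0.10, edgeR adjusted p = 0.523, and log2 −0.02 without that library).

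Promoters of respiratory genes are known to hold sites of NRF1, ETS factors such as GABPA, and YY1. A RefSeq window (GRCh38.p14) from 250 bases before to 50 bases after the start was found at the right position for 71 of 91 members, 10 of the 13 that fell among them, and 4 matched by an older symbol. Exact matches on either strand were sought for the NRF1 motif GCATGCGC, the ETS motif CCGGAAG and the YY1 motif AAGATGGC, which do not overlap each other in the windows printed here. The NRF1 motif was in 13 of 71 member windows (18.3%, against 4.26% of 15843 protein-coding promoters). The ETS motif was in 20 (28.2%, against 14.2%) and the YY1 motif in 11 (15.5%, against 3.91%). Among members that fell, 4 of 10 windows held at least 1 of the 3 motifs, and 34 of 71 of all members did (47.9%), so the counts of those that fell are small. A match is a description of the letters, and binding was not measured.

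The SDHB and SDHD windows are shown because these genes fell and hold the most matches of the 10, with matches in capitals and each sequence written 5′ to 3′ along the gene's strand. In SDHB (chr1:17053983-17054282, minus strand) the NRF1, ETS and YY1 matches begin at positions −200, −128 and 10, counted from 0 at the annotated start. In SDHD (chr11:112086623-112086922, plus strand) the NRF1 motif occurs on both strands, overlapping itself, at −110 and −108, and the ETS motif on the other strand at −77.
SDHB: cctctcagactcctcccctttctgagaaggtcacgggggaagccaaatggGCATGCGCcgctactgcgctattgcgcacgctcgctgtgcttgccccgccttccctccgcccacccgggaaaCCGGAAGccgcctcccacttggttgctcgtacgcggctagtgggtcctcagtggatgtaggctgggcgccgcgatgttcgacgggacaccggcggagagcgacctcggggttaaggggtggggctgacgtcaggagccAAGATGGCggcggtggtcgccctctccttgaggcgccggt
SDHD: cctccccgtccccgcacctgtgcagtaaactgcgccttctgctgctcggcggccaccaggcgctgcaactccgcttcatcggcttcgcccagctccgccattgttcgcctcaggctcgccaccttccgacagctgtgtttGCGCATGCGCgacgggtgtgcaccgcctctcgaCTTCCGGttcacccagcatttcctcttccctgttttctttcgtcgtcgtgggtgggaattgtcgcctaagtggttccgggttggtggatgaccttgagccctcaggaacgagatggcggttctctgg

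Complex III had 2 members that fell. UQCRFS1 (ENSG00000169021, chromosome 19, 29205321 to 29213541, minus strand), the Rieske iron-sulfur protein that takes electrons from ubiquinol, had 92.2, 86.4 and 73.8 CPM in the B35 libraries, against 107, 106 and 108 CPM in the control libraries. The controls were tightly grouped above all B35 values (log2 −0.35 ± 0.101, 1.27-fold lower, edgeR adjusted p = 0.0418). UQCR10 (ENSG00000184076, chromosome 22, 29767369 to 29770413, plus strand), a small accessory subunit, had 24.5, 44.1 and 38.3 CPM with B35, against 56.4, 55.3 and 48.9 CPM in controls. B35 replicate 1 was the lowest by a wide margin, the groups did not overlap, and the log2 fold change of −0.59 ± 0.178 (edgeR adjusted p = 0.0483) became −0.38 ± 0.102 without that library (edgeR adjusted p = 0.0212).

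UQCRH, the hinge protein beside cytochrome c1 and the most abundant member of the complex per length, had 143, 301 and 248 CPM with B35, against 309, 316 and 308 CPM in controls. The groups did not overlap, B35 replicate 2 lay close to the controls, and the gene did not pass (log2 −0.43 ± 0.204, edgeR adjusted p = 0.178). UQCRHL, a near-identical copy of it that may share reads with it, showed the largest difference of the complex and did not pass (log2 −0.63 ± 0.219, edgeR adjusted p = 0.076). Without B35 replicate 1 the log2 values were −0.18 for UQCRH and −0.38 for UQCRHL. The core proteins UQCRC1 and UQCRC2 measured −0.14 and −0.29 and the ubiquinone-binding subunit UQCRQ −0.26 on the log2 scale. CYC1, cytochrome c1, had 123, 209 and 213 CPM with B35, against 205, 217 and 193 CPM in controls, so that its difference of −0.18 on the log2 scale rested on B35 replicate 1 and was 0.04 without it. UQCR11 stood at 0.01.

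In complex IV, cytochrome c oxidase, COX7B fell the most of all 83 members that could be tested. COX7B (ENSG00000131174, chromosome X, 77899438 to 77907373, plus strand) encodes a small membrane subunit needed for the assembly of the enzyme. It had 126, 126 and 95.7 CPM in the B35 libraries, against 196, 161 and 193 CPM in the control libraries. Here B35 replicate 3 was the low value and all 3 lay below the controls. The log2 fold change was −0.67 ± 0.125 (1.59-fold lower, edgeR adjusted p = 0.00609), and it alone of the 13 passed in each of the 6 fits that left out 1 library, with the highest edgeR adjusted p at 0.0399. ATP5F1B passed in 5 of those fits and each of the others in 1 to 3. Its window (chrX:77899218-77899517, plus strand) is shown because it held no exact match to any of the 3 motifs, so it has no capitals.
COX7B: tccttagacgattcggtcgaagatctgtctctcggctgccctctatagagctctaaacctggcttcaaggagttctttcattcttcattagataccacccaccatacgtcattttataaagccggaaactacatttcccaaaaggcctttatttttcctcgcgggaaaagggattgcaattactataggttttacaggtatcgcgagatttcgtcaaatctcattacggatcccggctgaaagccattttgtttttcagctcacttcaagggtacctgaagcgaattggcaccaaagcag

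The remaining complex IV genes did not pass in the full data. COX5A, a matrix-side subunit, had 108, 175 and 137 CPM with B35, against 199, 189 and 194 CPM in controls, without overlap (log2 −0.47 ± 0.147, edgeR adjusted p = 0.0529). COX6B1, on the intermembrane side, had 70.4, 130 and 118 CPM with B35, against 149, 138 and 149 CPM in controls (log2 −0.45 ± 0.182, edgeR adjusted p = 0.119). Both had their lowest value in B35 replicate 1, and without it their log2 values were −0.32 for COX5A, which then passed, and −0.23 for COX6B1. COX4I1, the common form of the subunit that binds ATP, measured −0.18 on the log2 scale (−0.08 without that library), and its oxygen-dependent isoform COX4I2 had no counts in any library.

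COX6B2, an isoform known from testis, was the 1 member with every B35 library above every control. It had 3.79, 2.33 and 3.74 CPM with B35, against 1.84, 1.38 and 2.20 CPM in controls, from 25 to 71 counts per library. All 3 B35 values were higher, the gene did not pass (log2 0.86 ± 0.283, edgeR adjusted p = 0.0619), and it shares exon positions with AC020922.1. It made up 0.837% ± 0.436 of the summed FPKM of COX6B1 and COX6B2 with B35 and 0.303% ± 0.0585 in controls (SD, n = 3 each). NDUFA4L2, the oxygen-responsive relative of NDUFA4, was at 0.961, 1.39 and 0.633 CPM with B35 and 0.836, 1.16 and 1.07 CPM in controls. NDUFA4 measured −0.28 ± 0.098 (edgeR adjusted p = 0.0781).

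The 2 lowest ratios of B35 replicate 1 to the other B35 libraries were in complex IV. COX6A1, a regulatory subunit, had 14.3, 68.6 and 71.5 CPM in B35 replicates 1, 2 and 3, against 56.1, 61.5 and 50.6 CPM in the control libraries. The first B35 library lay far below all others, while the other 2 lay above every control. Its log2 fold change was −0.12 ± 0.414 with all libraries (edgeR adjusted p = 0.880) and 0.32 ± 0.096 without B35 replicate 1 (edgeR adjusted p = 0.0337), the 1 rise among members in that fit. COX8A, a small membrane subunit, had 28.8, 81.7 and 86.7 CPM with B35, against 71.4, 80.6 and 68.0 CPM in controls, with a log2 fold change of −0.16 that was 0.20 without that library (edgeR adjusted p = 0.775 and 0.145). The isoforms COX7A2 and COX7A2L measured −0.20 and −0.08 on the log2 scale and COX7C −0.07.

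**Figure D3:**
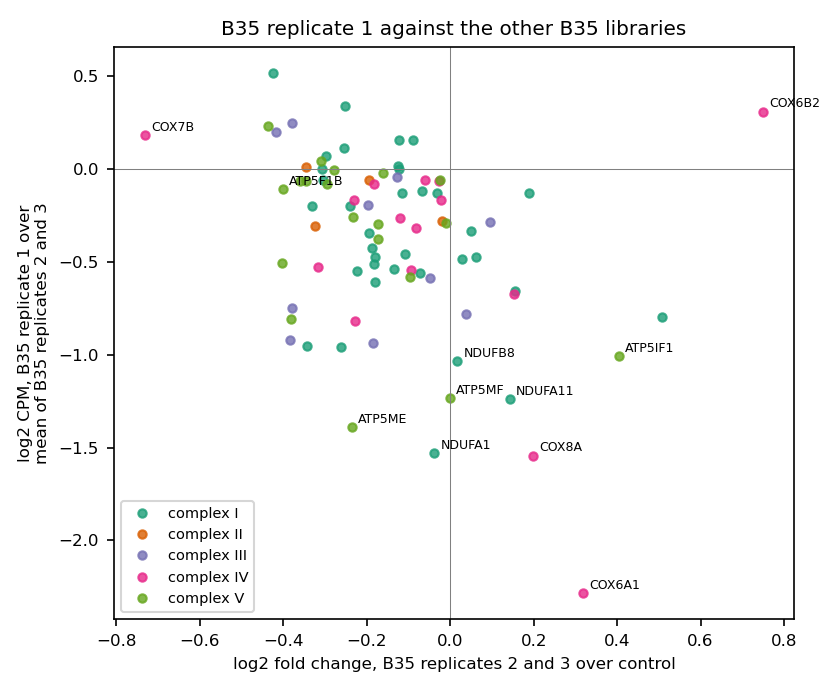
For each tested member, the log2 ratio of B35 replicate 1 to the mean of B35 replicates 2 and 3 (vertical) against the log2 fold change of B35 replicates 2 and 3 over control (horizontal), coloured by complex. COX6A1 lies lowest at −2.28, and COX7B lies farthest left, with no deficit in B35 replicate 1.

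Complex V had the most members that fell, 6 of 19, from both its parts. In the catalytic head, ATP5F1B (ENSG00000110955, chromosome 12, 56638175 to 56646068, minus strand), the beta subunit that makes ATP, had 796, 914 and 803 CPM in the B35 libraries, against 1133, 1116 and 1149 CPM in the control libraries. The groups lay well apart (log2 −0.44 ± 0.088, 1.35-fold lower, edgeR adjusted p = 0.00863), and the call was lost only without control replicate 3 (edgeR adjusted p = 0.0606). ATP5F1A (ENSG00000152234, chromosome 18, 46080248 to 46104334, minus strand), the alpha subunit, had 309, 336 and 318 CPM with B35, against 407, 396 and 401 CPM in controls. These groups also lay apart (log2 −0.32 ± 0.082, edgeR adjusted p = 0.0252). ATP5F1C, the gamma subunit of the rotating shaft, measured −0.29 ± 0.108 on the log2 scale and did not pass (edgeR adjusted p = 0.0898), and ATP5F1D and ATP5F1E measured −0.29 and −0.28.

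The c-ring, which turns as protons pass, is built from 1 protein made by 3 genes. ATP5MC1 (ENSG00000159199, chromosome 17, 48892765 to 48895871, plus strand) had 67.4, 91.9 and 99.9 CPM with B35, against 128, 130 and 122 CPM in controls. ATP5MC3 (ENSG00000154518, chromosome 2, 175176258 to 175184607, minus strand) had 76.3, 146 and 121 CPM with B35, against 172, 176 and 174 CPM in controls. In both the B35 values were scattered, with replicate 1 lowest, under tightly grouped controls. ATP5MC1 fell by 0.55 ± 0.133 and ATP5MC3 by 0.60 ± 0.184 on the log2 scale (edgeR adjusted p = 0.0189 and 0.0488), and without B35 replicate 1 by 0.40 and 0.38 (edgeR adjusted p = 0.00485 and 0.0112). ATP5MC2 had 231, 311 and 255 CPM with B35, against 335, 290 and 332 CPM in controls, and did not pass (log2 −0.26 ± 0.118, edgeR adjusted p = 0.159, and log2 −0.17 without B35 replicate 1). Its share of the summed FPKM of the 3 genes was 57.4% ± 3.85 with B35 and 51.8% ± 2.41 in controls (SD, n = 3 each), values whose libraries overlapped.

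In the stator and membrane part, ATP5PB (ENSG00000116459, chromosome 1, 111448864 to 111462773, plus strand), the b subunit of the peripheral stalk, had 166, 189 and 159 CPM with B35, against 230 CPM, 207 CPM and 225 CPM in controls. No B35 library reached a control (log2 −0.36 ± 0.096, 1.29-fold lower, edgeR adjusted p = 0.0286). ATP5MPL (ENSG00000156411, chromosome 14, 103912288 to 103928269, minus strand), a small proteolipid of the membrane part, had 45.4, 53.0 and 42.0 CPM with B35, against 62.8, 61.7 and 58.1 CPM in controls, also without overlap (log2 −0.38 ± 0.108, edgeR adjusted p = 0.0374). The ATP5PB window (chr1:111449214-111449513, plus strand) is shown because its YY1 match, on the other strand at −2, spans the annotated start.
ATP5PB: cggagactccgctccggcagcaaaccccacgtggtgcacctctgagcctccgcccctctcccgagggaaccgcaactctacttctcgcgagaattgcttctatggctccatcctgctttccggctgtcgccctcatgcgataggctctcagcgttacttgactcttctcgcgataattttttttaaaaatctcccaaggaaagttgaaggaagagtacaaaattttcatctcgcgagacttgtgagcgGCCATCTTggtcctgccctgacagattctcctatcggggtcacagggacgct

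Among the members of complex V that did not pass, ATP5MD, the most abundant per length after ATP5F1B, had 69.5, 92.0 and 74.4 CPM with B35, against 105, 92.5 and 95.2 CPM in controls (log2 −0.31 ± 0.117, edgeR adjusted p = 0.0956). ATP5ME, the e subunit, measured −0.57 ± 0.308 (edgeR adjusted p = 0.241) from few counts in a gene that shares 61.6% of its exon bases with MYL5, and −0.24 without B35 replicate 1. ATP5PO, the stalk subunit that meets the head, measured −0.35 ± 0.130 (edgeR adjusted p = 0.0913). ATP5IF1 encodes the inhibitor that blocks the enzyme when it runs backwards. It had 49.6, 99.46 and 99.99 CPM with B35, against 57.9, 95.01 and 72.9 CPM in controls. The groups overlapped, B35 replicate 1 was the lowest of all, and ATP5IF1 was the 1 member of complex V above 0 (log2 0.14 ± 0.245, edgeR adjusted p = 0.747).

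**Figure D4:**
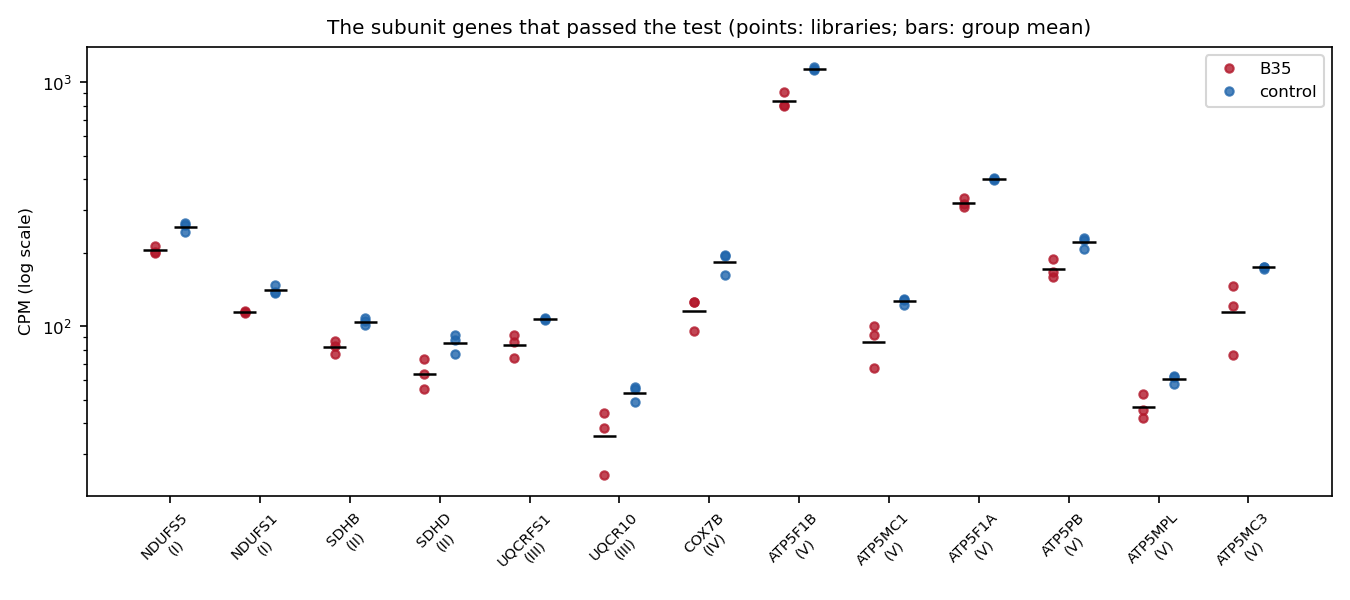
CPM on a log scale in each library for the 13 members that fell, with B35 left of control for each gene; points are libraries and bars are group means. In each gene all 3 B35 points lie below all 3 control points.

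The 13 members that fell did so by 0.31 to 0.67 on the log2 scale. For 10 of them the adjusted p lay between 0.02 and 0.05, and a further 12 members measured lower with an adjusted p between 0.05 and 0.1 in the same edgeR test. Of the 13, NDUFS1, SDHD, UQCRFS1, ATP5F1A, ATP5MC3 and ATP5PB share exon positions with another gene, as do 50 of the 91 members. A pseudogene is named after 45 of the 91, and how reads of such copies were assigned is not known, so these levels are less certain.

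The filter on low counts left out 8 members. NDUFA7, an accessory subunit of complex I, had 3, 6 and 10 counts with B35 and 5, 8 and 6 counts in controls, in a gene that shares exons with RPS28. COX7A1, the form of muscle, had 0, 1 and 1 counts with B35 and 1, 3 and 0 counts in controls. ATP5MF-PTCD1, a read-through gene, had 1 count in B35 replicate 3 and 0 in the other libraries. NDUFC2-KCTD14, COX4I2, COX6A2, COX8C and ATP5MGL were listed at 0 counts in all 6 libraries. No fold change is given for these 8.

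Other parts of the pathway were read from the same fit. Of the 13 subunits made in mitochondria, 5 fell (38.5%, against 6.59% of all genes lower), with a median log2 fold change of −0.29 over the list. In all, 9 of the 13 lay below 0 and the rest above it. MT-CO1, with the highest CPM of the list, had 16678, 12194 and 11089 CPM with B35, against 12537, 12218 and 12459 CPM in controls. It did not pass (log2 0.10 ± 0.135, edgeR adjusted p = 0.656). The share of counts from the mitochondrial genome averaged 4.25% ± 0.858 with B35 and 4.24% ± 0.104 in controls (SD). MT-ND3 of complex I had 309, 396 and 275 CPM with B35, against 670, 673 and 698 CPM in controls, the widest gap of the list (log2 −1.06 ± 0.125, edgeR adjusted p = 0.000629). MT-CYB of complex III and MT-CO3 of complex IV fell by 0.72 and 0.71, and MT-ATP6 of complex V and MT-ND2 of complex I by 0.37 and 0.38 (edgeR adjusted p = 0.00216, 0.00129, 0.0319 and 0.0460). MT-ND3, MT-CYB and MT-CO3 passed whichever library was left out. Without B35 replicate 1, 8 of the list were lower, and 3 when any 1 of the other libraries was left out.

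Among 20 electron carriers and feeder enzymes, 3 fell and 2 rose, which is 25.0% called, against 15.4% of all genes. CYCS, cytochrome c itself, which carries electrons between complexes III and IV, had 78.8, 102 and 94.9 CPM with B35, against 189, 167 and 176 CPM in controls. The groups lay far apart (log2 −0.95 ± 0.110, 1.93-fold lower, edgeR adjusted p = 0.000589), and the call held in all 6 fits that left out a library. NDUFAB1, the mitochondrial acyl carrier protein that is also part of complex I, fell by 0.42, and PDSS1, which makes the side chain of ubiquinone, fell by 0.77 (edgeR adjusted p = 0.0133 and 0.0119). SQOR, which feeds electrons from sulfide to ubiquinone, had 35.6, 36.2 and 30.7 CPM with B35, against 23.0, 17.9 and 21.3 CPM in controls, and rose by 0.72 on the log2 scale (edgeR adjusted p = 0.00443). COQ8A, needed for ubiquinone synthesis, rose by 0.57 (edgeR adjusted p = 0.00532). Without B35 replicate 1, 4 of this list rose and 5 fell, and without control replicate 3, 2 rose and 1 fell.

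Of 61 assembly factors, 59 were tested and 6 passed, each lower with B35 (10.2%, against 6.59% of all genes lower and 15.4% in either direction). They were HIGD1A (log2 −0.51), NDUFAF4 (−0.52), NDUFAF2 (−0.49), NDUFAF7 (−0.42), COA7 (−0.35) and CMC2 (−0.33), with edgeR adjusted p of 0.0178 to 0.0439. NDUFAF2, NDUFAF4 and NDUFAF7 serve complex I, and COA7 and CMC2 serve complex IV. The median over the list was −0.09, and 41 of 59 lay below 0, against 49.0% of all genes. All 6 calls were lost without B35 replicate 3, control replicate 1 or control replicate 3, and 2 of the list passed without control replicate 2. Without B35 replicates 1 and 2 in turn, 9 and 4 passed.

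Of 20 regulators of respiratory genes, 19 were tested and 1 passed (5.26%, against 15.4% of all genes). The median log2 fold change over this list was −0.19, and 12 of the 19 lay below 0, against 49.0% of all genes. MYC had 301, 312 and 300.0 CPM with B35, against 241, 234 and 236 CPM in controls, without overlap (log2 0.36 ± 0.081, edgeR adjusted p = 0.0136), and that call was lost without each control library in turn. Without control replicate 1 the 1 member that passed was lower. TFAM and TFB2M, which serve transcription of the mitochondrial genome, measured −0.31 and −0.30 in the full data (edgeR adjusted p = 0.0596 and 0.0577). Without B35 replicate 1, TFB2M passed too, lower with B35 (edgeR adjusted p = 0.0196). PPARGC1A and NRF1, regulators of mitochondrial biogenesis, measured 0.14 and 0.08 (edgeR adjusted p = 0.533 and 0.674). Of 17 genes of the oxygen-dependent mitochondrial switch, 14 were tested, 3 rose and 1 fell (28.6% called, against 15.4% of all genes). MXI1, an antagonist of MYC, had 97.5, 75.3 and 69.6 CPM with B35, against 33.3, 26.4 and 33.8 CPM in controls (log2 1.37 ± 0.146, edgeR adjusted p = 0.000343). BNIP3, which marks mitochondria for removal, rose by 0.49, and ISCU, the scaffold on which iron-sulfur clusters are built, by 0.38 (edgeR adjusted p = 0.00499 and 0.0293). HIGD1A, which is in this list too, was the 1 that fell. Without B35 replicate 3, or control replicate 1 or 3, 2 of this list passed, both higher with B35.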

How the data were processed

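Per the labels' protocols, TRIzol was used to extract RNA and the NEBNext Ultra kit to build libraries. The submitters' processing notes name HISAT2 2.0.5 and featureCounts 1.5.0-p3 with hg38. The strand setting and the treatment of reads with several positions are not given in the sources used here. Per the file headers, the authors deposited whole-number counts and FPKM for each of 58735 identifiers, all of which were found in GENCODE release 29.

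The two-sided quasi-likelihood test of edgeR 4.0.16 (R 4.3.3) was run on the counts with no covariate, on genes that passed filterByExpr with a minimum count of 10 and a minimum total of 15, after TMM scaling. Benjamini-Hochberg adjustment took in all 14773 genes tested, and a gene passed where the adjusted p was under 0.05. CPM used TMM factors of 0.979 to 1.03. SDs are over 3 libraries. FPKM served to compare levels between genes. Ratios between single libraries used CPM plus 0.1. Depth limits mainly the genes of few counts. Replicate libraries were not identical and stood farther apart than sampling noise (chi-square of 4.46 to 32.3 per degree of freedom).

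The members, the other gene lists and the tests were chosen with earlier results of these data known. Any member could be named, and named in any case were those that passed, the 2 with the highest FPKM and the 2 with the largest fold change in each complex, listed isoform pairs, ATP5IF1 and the untested members. From each other list up to 6 genes that passed were named, in order of adjusted p, and KDM1A. TFAM, TFB2M, PPARGC1A, NRF1 and MT-CO1 were chosen after their values were seen. No set test was run. Some genes are not reported here by name.

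Alternatives were RLE and upper-quartile scaling, no filter, a mean CPM of at least 1, omission of single libraries, a replicate block, offsets that remove trends on GC content and exon length within a library (5 spline degrees of freedom; 7 genes without a GC value took the median), robust dispersion, DESeq2 1.42.0 and limma-voom 3.58.1. The test was tried on simulated counts first. Promoter windows were matched by symbol or older symbol, chromosome, strand and position. Tables used Python 3.11.15 with pandas 2.3.3, and plots matplotlib 3.10.9.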

Additional observations from a re-analysis of the deposited data

How the results depend on the processing

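All 13 members that fell kept their sign under all 16 alternatives, the fits without 1 library included, and the median log2 fold change of the members and their summed levels stayed within the spread between replicates. Counts moved. With no filter, 29 members passed (28 lower, 1 higher, with complex I 9, III 4, IV 4 and V 10), and 3 regulators, among 2895 of 27717 genes. With GC and length trends removed, 33 passed, each lower (I 10, III 6, IV 3, V 11), with 17 assembly factors, 9 regulators and 8 genes of the oxygen-dependent switch, among 4164 of all genes. Complex I had 1 and complex III 1 under upper-quartile scaling. DESeq2 gave complex I 5, complex IV 2 and regulators 2. RLE scaling, robust dispersion and limma-voom gave complex IV 2. Counting NDUFA4 and NDUFA4L2 with complex I changed no count.

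Whether the replicate numbers pair the samples could not be settled from these values. Deviations of same-numbered libraries correlated at 0.208, 0.0457 and −0.0867. B35 replicates 1 and 2 correlated best with the control of the same number, and B35 replicate 3 with control replicate 2 (0.307). With the replicate block, 27 members passed (26 lower, 1 higher, with I 9, III 4 and IV 4) and 2 regulators, among 2855 of all genes. In that fit 8.54% of all genes were lower. With the block and the GC and length trends removed, 45 passed (44 lower, 1 higher; I 15, III 7, IV 6, V 14), with 16 assembly factors, 10 regulators and 9 genes of the switch, among 4169 of all genes.

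Leaving out 1 library gave 1 to 22 members called (1 to 21 lower, 0 to 1 higher by edgeR), 881 to 3342 of all genes, and 0 to 3 in complex I, 0 to 2 in II, 0 to 4 in III, 1 to 4 in IV and 0 to 9 in V. The lists had 0 to 9 assembly factors, 3 to 8 mitochondrially encoded subunits, 3 to 9 carriers, 0 to 2 regulators and 2 to 5 genes of the switch. Some members that did not pass changed sign in these fits, with log2 ranges of NDUFA11 −0.48 to 0.14, NDUFA13 −0.18 to 0.51, NDUFA2 −0.22 to 0.029, NDUFA5 −0.14 to 0.050, NDUFB1 −0.18 to 0.075, NDUFB8 −0.59 to 0.017, NDUFS3 −0.15 to 0.050, NDUFS7 −0.18 to 0.15, NDUFV1 −0.17 to 0.062, NDUFV2 −0.44 to 0.15, CYC1 −0.31 to 0.039, UQCR11 −0.12 to 0.097, COX6A1 −0.44 to 0.32, COX7B2 −0.31 to 0.15, COX8A −0.41 to 0.20, NDUFA4L2 −0.37 to 0.20 and ATP5IF1 −0.018 to 0.40. NDUFB1 also reached 0.0019 with block and trends removed, UQCR11 −0.0014 with no filter, −0.068 with the trends removed and −0.066 with the block as well, and COX7B2 0.021 with the trends removed. The cause of these movements was not tested. Members of few counts, such as NDUFA13, NDUFV2, NDUFB8 and NDUFA4L2, are limited by depth, and the calls near the threshold by 3 libraries per group.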
